A study of Mus musculus with 76 samples.

Results

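The aryl hydrocarbon receptor and 7 genes reported as its targets were described here: Ahr, Ahrr, Cyp1a1, Cyp1b1, Tiparp, Nqo1, Lrat and Aldh3a1. They were taken by symbol from the annotation of the array, with the probe of the highest mean over all 76 arrays standing for each gene, and they are 8 of the 20710 genes tested. The study asked about the part of Noxo1, whose product organises the superoxide-forming enzyme NOX1, in a mouse model of emphysema and pulmonary hypertension caused by cigarette smoke. Vessels and alveolar septa were microdissected from the lungs of 40 mice, and RNA was hybridised to single-colour Agilent arrays, 37 of vessels and 39 of septa. Smoke-exposed mice breathed smoke of Kentucky research cigarettes at 140 mg of particles per m3, for 6 h a day on 5 days a week, starting at week 12 of age, and tissue was taken after 8 or 3 months. Control mice were kept for the same times, and their treatment is otherwise not stated. Each of the 8 combinations of genotype (Noxo1 knockout or wild-type), exposure and time gave a group of 4 or 5 arrays in each tissue, 16 groups in all. A single strain name, C57BL/6-Noxo1(tm1881_17.2Arte), stands for all mice in the labels. Which cells the allele affects, which part of the gene it removes and which mice shared a cage are likewise not stated, and p-values measure the spread between these mice.

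The aryl hydrocarbon receptor is a transcription factor that waits in the cytoplasm in a complex with heat shock protein 90. Planar aromatic molecules, among them the polycyclic hydrocarbons of tobacco smoke, bind it, and it moves to the nucleus, pairs with ARNT and binds xenobiotic response elements, whose core reads GCGTG. CYP1A1 and CYP1B1, the best known products of its targets, oxidise such hydrocarbons, while NQO1 and ALDH3A1 detoxify quinones and aldehydes, and AHRR and TIPARP act back on the receptor as repressors. In the lung CYP1A1 is a common readout of smoke exposure. LRAT, which esterifies retinol for storage, ties the list to vitamin A, a pathway long linked to the receptor.

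Promoter windows of 300 bases, 250 before to 50 after the start listed for each gene in a table of RefSeq promoters (GRCm38.p6), were read for 6 of the 8 genes. Those of the 3 genes with the highest mean smoke differences in septa and of the repressor gene Ahrr are shown, 5′ to 3′ on the strand of the gene, with each GCGTG of either strand in capitals (CACGC where it lies on the other strand). The Cyp1a1 window is chr9:57697363-57697662 (plus strand), at a start that lies inside the extent of the gene given below and not at its first base, the Nqo1 window chr8:107403156-107403455 (minus strand), the Lrat window chr3:82903925-82904224 (minus strand) and the Ahrr window chr13:74292282-74292581 (minus strand).
Cyp1a1: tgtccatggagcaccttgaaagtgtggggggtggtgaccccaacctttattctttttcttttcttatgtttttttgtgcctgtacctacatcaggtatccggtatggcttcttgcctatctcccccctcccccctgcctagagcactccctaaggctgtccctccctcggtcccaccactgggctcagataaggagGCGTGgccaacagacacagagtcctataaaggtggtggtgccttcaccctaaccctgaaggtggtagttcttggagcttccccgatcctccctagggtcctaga
Nqo1: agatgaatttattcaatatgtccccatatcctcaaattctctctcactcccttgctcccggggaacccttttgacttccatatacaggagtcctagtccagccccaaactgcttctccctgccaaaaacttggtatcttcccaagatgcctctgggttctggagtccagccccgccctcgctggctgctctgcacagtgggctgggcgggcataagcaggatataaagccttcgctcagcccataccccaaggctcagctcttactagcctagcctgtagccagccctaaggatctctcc
Lrat: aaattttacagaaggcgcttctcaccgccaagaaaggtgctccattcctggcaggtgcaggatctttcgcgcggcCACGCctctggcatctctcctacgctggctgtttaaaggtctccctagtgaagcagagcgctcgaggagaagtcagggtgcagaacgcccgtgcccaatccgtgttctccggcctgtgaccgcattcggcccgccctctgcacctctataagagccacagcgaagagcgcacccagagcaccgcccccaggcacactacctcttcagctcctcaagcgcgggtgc
Ahrr: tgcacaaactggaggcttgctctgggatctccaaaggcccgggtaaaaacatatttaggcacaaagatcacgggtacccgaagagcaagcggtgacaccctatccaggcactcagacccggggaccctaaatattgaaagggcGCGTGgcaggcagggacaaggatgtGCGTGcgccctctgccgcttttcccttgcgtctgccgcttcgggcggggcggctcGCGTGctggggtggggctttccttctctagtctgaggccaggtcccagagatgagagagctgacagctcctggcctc
GCGTG lay once in the Cyp1a1 window, at position -54 relative to that inner start, and once in the Lrat window, at -175. Ahrr held 3 copies, at -107, -82 and -27, and Nqo1 held none. In all, 5 of the 6 windows held the core, as did 32.4% of the 32851 promoter windows of the genome, and 3.92% of those held 3 or more. The antioxidant response element TGACNNNGC, searched on both strands, lay in 0 of the 6 windows and in 12.4% of all windows. These matches are descriptions of letters.

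Values are log2 signals, so 1 unit is a 2-fold difference, and differences are smoke minus control, knockout minus wild-type, 8 minus 3 months or vessels minus septa. As a measure of background, 1322 odorant and vomeronasal receptor genes were used: 95% of their mean signals lay below 3.26, and 95% of their single values below 3.99. The tissue labels went with 3 marker lists: 6 of 6 smooth muscle genes passed the test as higher in vessels, and 7 of 7 genes of type 2 pneumocytes and 6 of 6 of capillary endothelium as lower, although neither set was absent from vessels. Of all genes 12.7% passed as higher and 16.2% as lower. Arterial and venous endothelium genes split, with Vwf, Gja5 and Bmx higher in vessels and Sox17 (-1.16 ± 0.14) and Slc6a2 (-2.72 ± 0.31) lower. Noxo1 averaged 2.42 ± 0.67 in knockout and 3.72 ± 1.27 in wild-type septa (SD, n = 20 and 19), and 3.20 ± 1.25 in knockout and 4.05 ± 1.54 in wild-type vessels (n = 18 each), with overlapping ranges in both tissues. Both knockout means lay below 3.26. The highest Noxo1 value in vessels was that of a knockout mouse, 7.03, against a highest wild-type value of 6.69, and the reason was not tested. The female-specific RNA Xist was 2.88 ± 1.16 (SE) higher in smoke-exposed than in control septa and 2.85 ± 1.29 higher in vessels, so sex was unevenly spread between the exposures. In septa its smoke difference was 7.77 and 2.00 in knockout mice at 8 and 3 months, and 3.62 and -1.88 in wild-type mice. In vessels the same 4 values were 4.23, 3.41, 6.59 and -2.84. Smoke and sex therefore cannot be fully told apart in the single comparisons, above all at 8 months. The sex-linked genes of mice 7 (knockout control) and 29 (wild-type control), both of 8 months, were female in 1 tissue and male in the other, in opposite directions. The main smoke and genotype differences are therefore given with and without these arrays. In such bulk tissue, fewer cells of a type and less RNA per cell cannot be told apart.

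Ahr itself (chr12:35497979-35534989, gene 11622) was well measured, with a signal above the single-value background in every mouse. It averaged 7.87 ± 0.94 in vessels and 8.75 ± 0.66 in septa (SD, n = 36 and 39). Group means ran between 7.20 ± 1.39 (wild-type smoke, 3 months) and 8.42 ± 0.28 (knockout smoke, 8 months) in vessels. In septa they ran between 8.33 ± 0.45 (knockout smoke, 3 months) and 9.26 ± 0.24 (knockout control, 8 months). No neighbouring groups in the order of means were further apart than the larger of their SDs, in either tissue. Smoke minus control averaged over the 4 combinations of genotype and time was 0.20 ± 0.31 (SE) in vessels and -0.20 ± 0.19 in septa, with adjusted p-values of 0.991 and 0.85, so no difference was detected. A further Ahr probe had a low signal (3.08 in vessels and 3.81 in septa) and correlated with the chosen probe at only 0.18 over the arrays. It gave mean smoke differences of the opposite sign, -0.53 in vessels and 0.21 in septa.

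Ahrr (chr13:74211118-74292331), which encodes a repressor competing with the receptor for ARNT, lay near background. It averaged 2.03 ± 0.85 in vessels and 2.22 ± 0.96 in septa, and 2 of 37 vessel arrays and 3 of 39 septa arrays exceeded the single-value background. Its mean smoke difference in septa was -0.60 ± 0.29, with an unadjusted p of 0.0428 and an adjusted p of 0.637 (limma). Smoke-exposed septa had a lowest, median and highest value of 1.10, 1.95 and 3.54, and control septa 1.08, 2.20 and 4.91. All 3 septa above the single-value background were controls, and otherwise the exposures overlapped. The other Ahrr probe gave a mean smoke difference of 0.05 in septa.

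Cyp1a1 (chr9:57687928-57703824), the hydrocarbon-oxidising P450 and the most used readout of the receptor, had the largest mean smoke difference of the 8 genes in septa. In wild-type septa at 8 months the 5 smoke-exposed mice had 4.80, 5.36, 8.71, 5.08 and 5.27, against 5.02, 1.90, 3.75, 1.04 and 4.00 in the 5 controls. At 3 months, wild-type smoke-exposed septa had 2.35, 4.09, 3.83, 4.84 and 4.67, against 1.90, 3.46, 5.05 and 3.48 in controls. The groups overlapped at both times, at 8 months through a single control mouse at 5.02. In knockout septa the smoke-exposed mice had 4.55, 2.40, 1.49, 5.89 and 3.86 at 8 months, against 1.81, 1.23, 2.18, 1.69 and 3.33 in controls. At 3 months knockout smoke-exposed septa had 3.96, 1.84, 2.00, 4.38 and 1.72, against 1.70, 2.21, 1.81, 1.48 and 3.36 in controls. In knockout mice 3 of 5 smoke-exposed septa at 8 months lay above every control, and 2 of 5 did so at 3 months. Over both genotypes and times, 11 of 20 smoke-exposed and 3 of 19 control septa exceeded the single-value background of 3.99.

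The mean smoke difference of Cyp1a1 in septa was 1.36 ± 0.40 (SE), with smoke-exposed septa at 4.05 ± 1.75 (SD, n = 20) and controls at 2.65 ± 1.24 (n = 19). The control mean lies below the receptor genes' 3.26, so the size of the difference is not a measured fold. Its unadjusted p of 0.00147 was the 48th lowest of 20710 genes, and its adjusted p was 0.55 (limma), so the difference did not pass. Only 0.0483% of all genes had a larger absolute mean smoke difference in septa. The difference was positive in 4 of 4 combinations, at 2.70 ± 0.79 and 0.48 ± 0.84 in wild-type septa at 8 and 3 months and at 1.59 ± 0.79 and 0.67 ± 0.79 in knockout septa at 8 and 3 months. Without the highest knockout mouse (5.89) the difference at 8 months was 1.03 ± 0.80. At 3 months it ran from -0.04 (without wild-type control replicate 1) to 1.01 in wild-type and from 0.27 to 0.98 in knockout septa with 1 mouse left out at a time. The difference between the times was 1.57 ± 0.80 with an adjusted p of 0.846, and that between the genotypes -0.46 ± 0.80 with an adjusted p of 0.999. The highest of the 8 septa groups, wild-type smoke at 8 months with 5.84 ± 1.62, was the only group further from its neighbour in the order of means (wild-type smoke at 3 months, 3.96 ± 0.99) than the larger SD. Without its highest mouse the difference at 8 months was 1.98 ± 0.77 and the mean smoke difference 1.18 ± 0.37. Without the arrays of mice 7 and 29 the mean smoke difference was 1.18 ± 0.40, and with Xist as a covariate it was 1.46 ± 0.43, with adjusted p-values of 0.488 and 0.651.

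In vessels Cyp1a1 averaged 2.60 ± 1.48 (SD, n = 36), and 6 of 37 vessel arrays exceeded the single-value background. In wild-type vessels at 8 months the smoke-exposed mice had 4.22, 4.26, 7.41 and 2.09, against 1.98, 3.06, 2.56, 1.34 and 1.73 in controls. At 3 months they had 3.39, 1.17, 1.42, 5.90 and 5.00, against 1.78, 2.69, 2.34 and 1.39 in controls. Thus 3 of 4 smoke-exposed wild-type vessels at 8 months and 3 of 5 at 3 months lay above every control. Knockout vessels of smoke-exposed mice had 1.31, 3.84, 3.18 and 1.49 at 8 months, against 3.66, 1.92, 3.73, 1.04 and 1.28 in controls. At 3 months knockout smoke-exposed vessels had 1.28, 1.21, 2.22, 1.83 and 2.13, against 1.04, 2.12, 4.37 and 2.23 in controls. The exposures were intermixed in knockout vessels at both times. The smoke difference was 2.36 ± 0.87 in wild-type vessels at 8 months (unadjusted p 0.01) and 1.33 ± 0.87 at 3 months, and 0.13 ± 0.87 and -0.71 ± 0.87 in knockout vessels at 8 and 3 months, and none passed adjustment. With 1 mouse left out at a time the wild-type difference at 3 months ran from 0.70 to 1.88, and the knockout differences from -0.33 to 0.51 at 8 months and from -1.17 to -0.06 at 3 months. The mean over the 4 was 0.78 ± 0.43 with an adjusted p of 0.977, and 0.76 ± 0.45 without mice 7 and 29. Mouse 38, a wild-type smoke-exposed mouse of 8 months, had the highest Cyp1a1 value of all septa (8.71) and of all vessels (7.41), and without its vessel array the difference in wild-type vessels at 8 months was 1.39 ± 0.85.

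**Figure D1:**
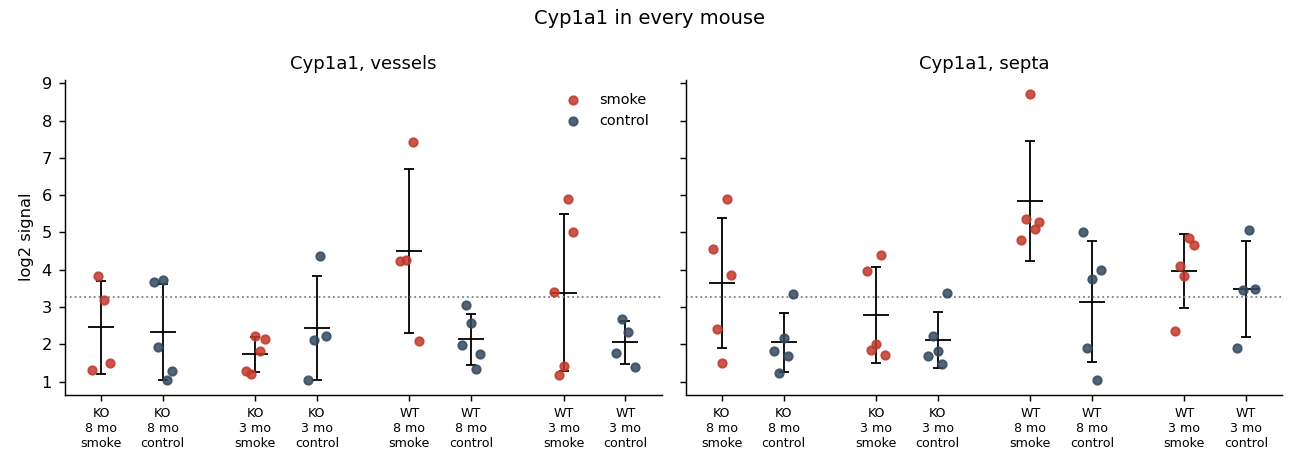
Log2 signal of Cyp1a1 (vertical axis) in every mouse, in vessels (left) and septa (right), by genotype (KO, Noxo1 knockout; WT, wild-type), time and exposure; points are mice, bars the mean ± SD and the dotted line the receptor genes' level of 3.26. Wild-type smoke-exposed septa at 8 months have the highest mean, 5.84, with a single mouse at 8.71 above the rest.

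Nqo1 (chr8:107388225-107403205), the quinone reductase, was well above background in most vessels and spread widely in septa. At 8 months wild-type smoke-exposed septa had 5.48, 7.03, 7.13, 1.25 and 5.03, against 4.35, 1.46, 3.98, 1.48 and 4.89 in controls. Knockout smoke-exposed septa at 8 months had 4.41, 6.22, 5.72, 5.00 and 1.77, against 5.88, 2.86, 1.30, 1.77 and 1.84 in controls. In each genotype 4 of 5 smoke-exposed mice lay above most controls and the fifth lay at background. At 3 months all values but 1 were above 3.26, with 4.66 to 6.67 in smoke-exposed and 2.70 to 5.79 in control wild-type septa, and 4.04 to 6.55 in smoke-exposed and 4.58 to 5.38 in control knockout septa. The mean smoke difference in septa was 1.34 ± 0.46 (SE), with means of 5.20 ± 1.52 (SD, n = 20) in smoke-exposed and 3.83 ± 1.63 (n = 19) in control septa, an unadjusted p of 0.00564 and an adjusted p of 0.55. It was positive in 4 of 4 combinations, from 0.39 in knockout septa at 3 months (0.09 to 0.71 with 1 mouse left out) to 1.95 in wild-type septa at 8 months (1.47 to 2.94), and 18 of 20 smoke-exposed against 10 of 19 control septa exceeded the single-value background. The lowest group mean, 2.73 ± 1.85 in knockout control septa at 8 months, lay below 3.26, so the sizes at 8 months are not measured folds. In vessels the mean smoke difference was 0.26 ± 0.51, and the 4 differences ran from -1.23 in wild-type vessels at 3 months to 1.30 in knockout vessels at 8 months. Without 1 array these ends were as near to 0 as -0.33 (without smoke replicate 1) and 0.70 (without control replicate 4, mouse 7). The difference between the tissues was itself -1.05 ± 0.70 with an adjusted p of 0.883. Without mouse 7 and mouse 29 the septa difference was 1.24 ± 0.47, and with Xist as a covariate 1.62 ± 0.48.

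Lrat (chr3:82892582-82903974), which makes the storage form of vitamin A, had positive mean smoke differences in both tissues. In septa it was 0.78 ± 0.24 (SE), with an unadjusted p of 0.00272 and an adjusted p of 0.55. Smoke-exposed septa averaged 7.36 ± 0.80 (SD, n = 20) and controls 6.59 ± 0.64 (n = 19). At 8 months wild-type smoke-exposed septa had 6.76, 7.34, 6.41, 7.77 and 8.38, against 6.37, 6.13, 6.33, 6.21 and 6.77 in controls. Knockout smoke-exposed septa had 8.20, 6.37, 7.26, 6.62 and 7.72 at that time, against 6.78, 6.55, 6.43, 6.36 and 6.27 in controls. Control septa at 8 months were narrowly spread, with SDs of 0.20 and 0.25, and 3 of 5 smoke-exposed mice of each genotype lay above all of them. All of these higher mice had high Xist in septa. The smoke-exposed mice with low Xist had 6.76 and 6.41 (wild-type) and 6.37 (knockout), within the control range, as did a knockout mouse with high Xist (6.62). Among these controls only mouse 29 had high Xist in septa, so smoke and sex cannot be told apart in this separation. At 3 months wild-type smoke-exposed septa had 6.86 to 8.41, against 5.33 to 7.04 in controls, a difference of 1.05 ± 0.51, which was 0.65 ± 0.54 without the lowest control. Knockout smoke-exposed septa at 3 months had 5.71 to 8.56, against 6.14 to 8.39 in controls. The mean difference in septa was 0.77 ± 0.26 without mice 7 and 29. With Xist as a covariate it was 0.59 ± 0.25, and that in knockout septa at 8 months was 0.24 ± 0.52 in place of 0.76 ± 0.48. Over the 39 septa Lrat and Xist correlated at r = 0.36 within groups, and type 2 pneumocyte and heart muscle genes correlated with Lrat at 0.40 and 0.48. Of the heart muscle genes, Tnnt2 (1.93) and Myl7 (2.09) averaged below the receptor genes' 3.26 in septa, and Myh6 (3.38), Nppa (4.38) and Actc1 (4.82) above it.

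In vessels Lrat was near background in many mice, with 12 of 18 smoke-exposed and 6 of 18 control vessels above the single-value background. Knockout smoke-exposed vessels had 5.94, 6.00, 3.61 and 3.19 at 8 months, against 1.78, 1.96, 4.43, 1.18 and 2.08 in controls. At 3 months they had 6.24, 5.61, 4.59, 4.89 and 7.71, against 1.90, 2.46, 6.71 and 1.43 in controls. In each of these comparisons a single control reached into the range of the smoke-exposed mice. The differences were 2.40 ± 1.07 at 8 months and 2.69 ± 1.07 at 3 months, with adjusted p-values of 0.9995 and 0.709. Wild-type vessels gave 1.38 ± 1.07 at 8 months and -1.31 ± 1.07 at 3 months, the second running from -2.11 (without control replicate 3) to -0.44 (without control replicate 4). Control vessels had a median of 2.41, below the receptor genes' 3.26, so these differences are not measured folds. The mean over the 4 was 1.29 ± 0.54, with an unadjusted p of 0.0216 and an adjusted p of 0.977. It was 1.59 ± 0.56 with Xist as a covariate, and 1.22 ± 0.57 without mice 7 and 29. Genes of the Y chromosome correlated with Lrat at r = 0.52 within groups over 36 vessels. The cell type lists with the strongest correlations were those of neutrophils (r = 0.42), smooth muscle (-0.40), ciliated cells (0.38) and type 2 pneumocytes (0.36). Type 2 pneumocyte genes averaged 10.3 in smoke-exposed and 9.33 in control knockout vessels at 8 months, and 10.1 and 9.66 at 3 months. The part of these cells in the Lrat difference was not tested.

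**Figure D2:**
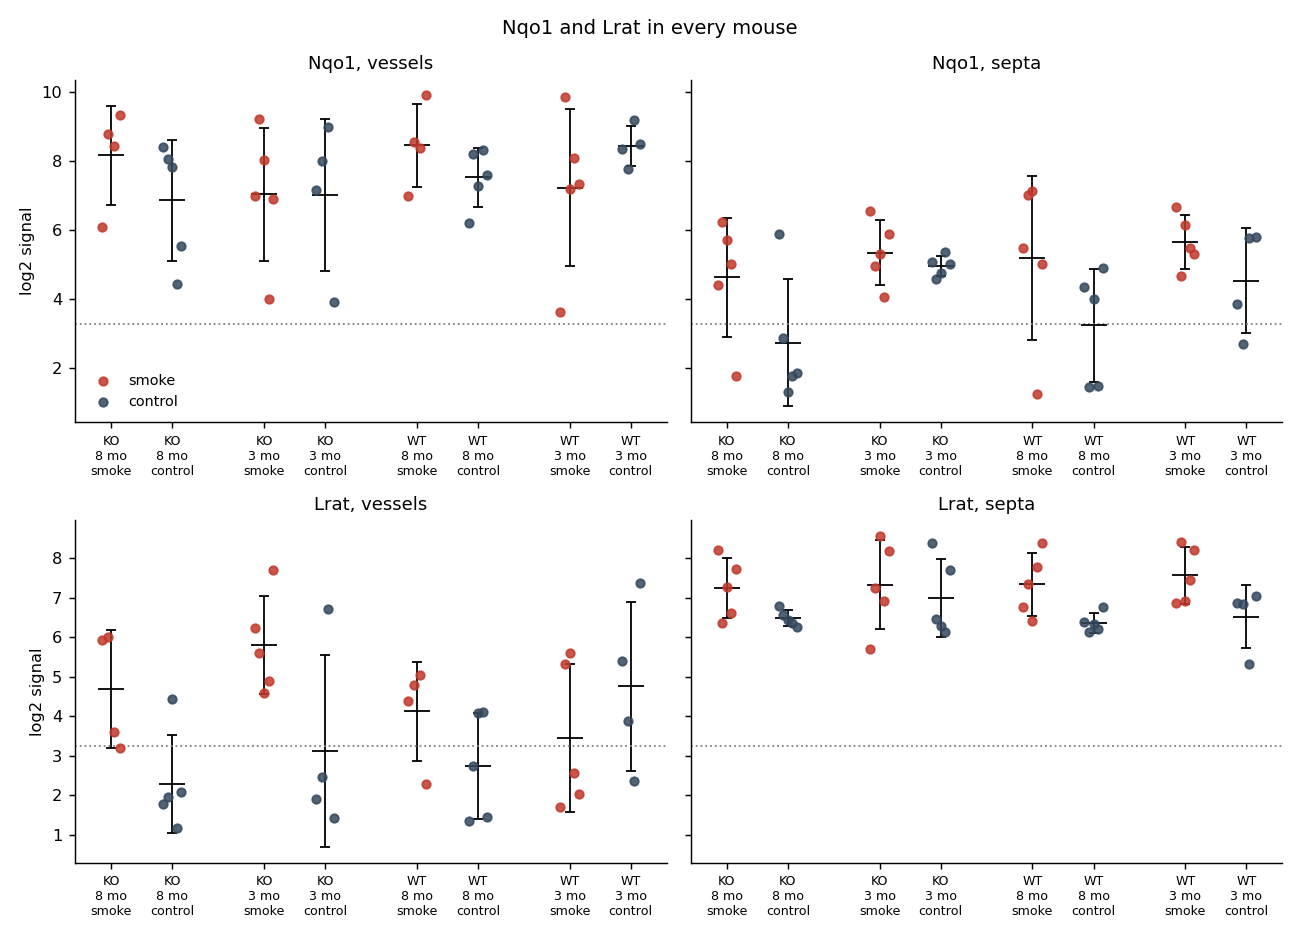
Log2 signal of Nqo1 (top) and Lrat (bottom) in every mouse, in vessels (left) and septa (right), drawn as for Cyp1a1 with mean ± SD and the receptor genes' level of 3.26 dotted. Nqo1 spreads from background to over 7 in septa at 8 months, and Lrat controls in septa at 8 months lie closely together.

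Cyp1b1 (chr17:79706940-79715061), the second hydrocarbon-oxidising P450, was largely below background in septa, where 2 of 20 smoke-exposed and 1 of 19 control mice exceeded the single-value background. In knockout septa at 8 months the smoke-exposed mice had 1.72, 5.42, 2.90, 2.26 and 6.06, against 1.57, 1.37, 2.70, 1.98 and 1.85 in controls. The difference of 1.78 ± 0.60 (unadjusted p 0.0049, adjusted p 0.587) rested on 2 mice above 5, with the other 3 at 2.90 or below, and was 1.18 ± 0.57 without the highest mouse. In wild-type septa at 8 months the difference was -0.70 ± 0.60. In vessels, where Cyp1b1 was expressed at 5.25 ± 1.61, smoke-exposed mice had a lowest, median and highest value of 1.88, 5.06 and 8.44, and controls 1.76, 5.41 and 7.26. The mean smoke difference there was 0.08 ± 0.53, with a 95% interval of -1.001 to 1.16.

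Tiparp (chr3:65528447-65555518), a mono-ADP-ribosyltransferase induced by the receptor and acting back on it, exceeded the single-value background on all 39 septa arrays and on 36 of 37 vessel arrays. Its mean smoke difference was 0.67 ± 0.35 in vessels (adjusted p 0.977) and -0.09 ± 0.30 in septa (adjusted p 0.968). In knockout vessels at 8 months the smoke-exposed mice had 7.83, 7.62, 8.22 and 6.95, against 4.25, 5.37, 7.15, 7.79 and 6.36 in controls. That difference was 1.47 ± 0.71 with an unadjusted p of 0.0452 and an adjusted p of 0.9995, and it was 0.99 ± 0.71 without the lowest control. The other Tiparp probe, whose correlation with the chosen probe was 0.26 over the arrays, gave -0.15 for the same comparison and -0.42 for mean smoke in vessels, so the probes disagreed in sign. In septa the 4 differences of the chosen probe ran from -0.39 to 0.34. The other probe gave 1.52 and -1.44 in wild-type septa at 3 and 8 months, and 0.09 and 0.11 in knockout septa. None of these passed adjustment.

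Aldh3a1 (chr11:61208510-61218418), which oxidises aldehydes, showed no detected smoke difference. Smoke-exposed vessels had a lowest, median and highest value of 2.01, 5.76 and 7.32, and control vessels 2.67, 5.14 and 7.94. Smoke-exposed septa had 2.46, 4.27 and 6.83, and control septa 2.33, 5.11 and 7.38. The mean smoke difference was 0.14 ± 0.52 in vessels and -0.19 ± 0.36 in septa. Its 2 probes correlated at 0.88 over the arrays. Within groups, Aldh3a1 followed the club cell genes in vessels at r = 0.69 over 36 mice and the ciliated cell genes in septa at r = 0.55 over 39, both cells of the airway lining. In septa the ciliated genes Tmem212 (2.07), Foxj1 (2.38) and Dnah5 (2.75) averaged below 3.26, and Rsph1 (3.47), Tppp3 (5.89) and Ccdc39 (7.20) above it. The mean of that list in septa is therefore in part background signal.

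Across the 8 genes, 0 of 8 passed an adjusted p of 0.05 in any of the 8 comparisons of smoke with control. Of all 20710 genes, 0.00483% (1 gene) passed in wild-type septa at 3 months and 0% in each of the other 7 comparisons, as well as 0% for mean smoke in either tissue. At an unadjusted p below 0.05 the members were 3 of 8 in wild-type septa at 8 months (all genes 5.79%), 1 of 8 at 3 months (5.09%), 3 of 8 in knockout septa at 8 months (6.55%) and 0 of 8 at 3 months (3.54%). In vessels they were 1 of 8 in wild-type mice at 8 months (2.94%), 0 of 8 at 3 months (6.12%), 2 of 8 in knockout mice at 8 months (4.3%) and 1 of 8 at 3 months (6.2%). For mean smoke they were 4 of 8 in septa, namely Cyp1a1, Lrat, Nqo1 and, with the opposite sign and near background, Ahrr, against 7.7% of all genes. In vessels only Lrat (1 of 8) reached that level, against 5% of all genes. The median of the 8 mean smoke differences was 0.23 in vessels and 0.17 in septa, and that of all genes -0.01 and -0.03. The 8 genes were chosen with earlier results of these data known. These counts and medians, and the counts below, therefore do not test the 8 genes as a set. In each of the 64 single comparisons of a gene the smoke-exposed and control groups overlapped. The share of all genes that did so is not given here, so this describes the 8 genes without setting them apart. Alveolar macrophage genes, 7 of them measured, averaged 8.23 in smoke-exposed and 7.34 in control wild-type septa at 8 months, and 9.09 and 7.96 in knockout septa. Over the 39 septa they correlated within groups at r = 0.00 with Cyp1a1, 0.12 with Nqo1 and 0.01 with Lrat, and the part of these cells in the smoke differences was not tested further.

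**Figure D3:**
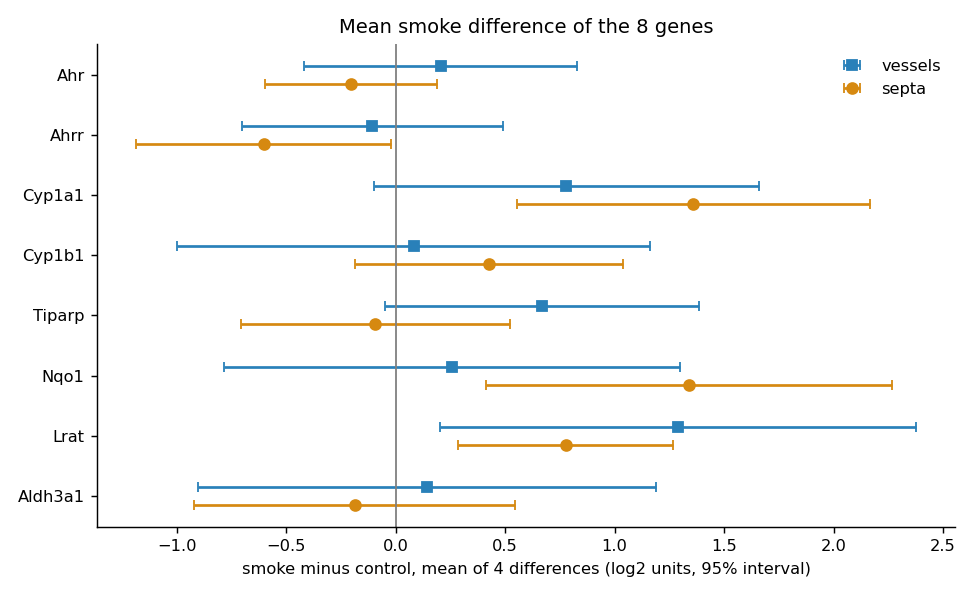
Mean smoke difference (horizontal axis, smoke minus control in log2 units, averaged over the 4 combinations of genotype and time) of the 8 genes, with 95% intervals from limma, in vessels (squares) and septa (circles). The intervals of Cyp1a1, Nqo1 and Lrat in septa and of Lrat in vessels lie above 0, and that of Ahrr in septa lies below it, before adjustment over all genes.

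**Figure D4:**
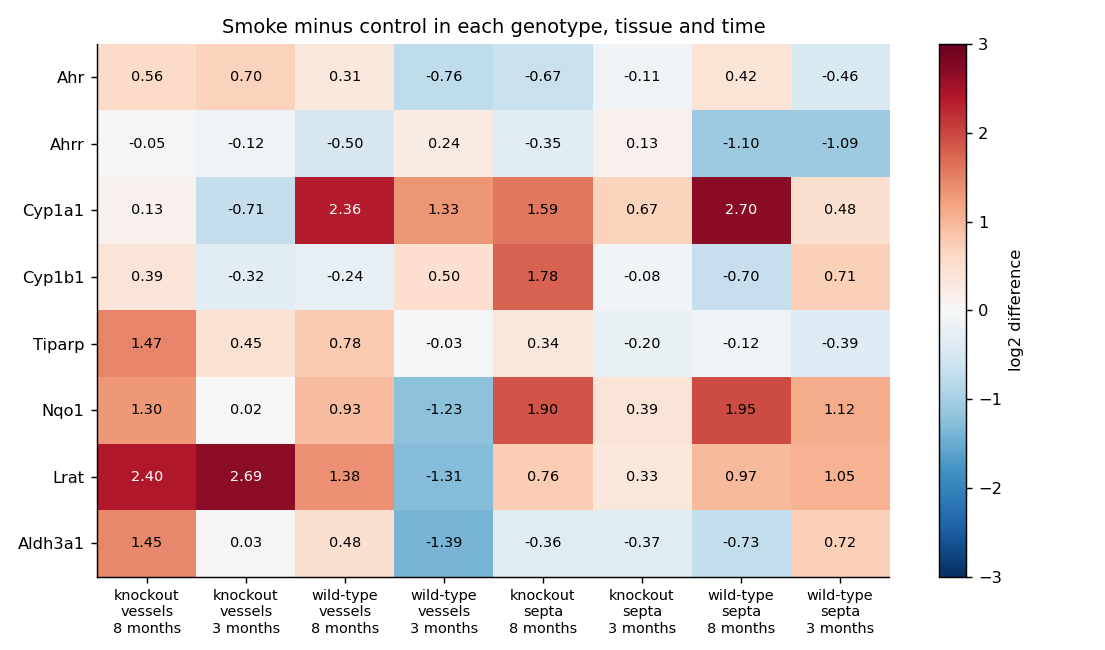
Smoke minus control (log2 difference, colour and number) of the 8 genes in each tissue, genotype and time. Cyp1a1, Nqo1 and Lrat are positive in all 4 columns of septa, while wild-type vessels at 3 months hold the lowest values of Nqo1, Lrat and Aldh3a1.

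Of the 8 genes, Cyp1a1 in septa had the largest difference between genotypes, which did not pass adjustment. Knockout septa had a mean of 2.64 ± 1.29 (SD, n = 20) and wild-type septa 4.14 ± 1.69 (n = 19), a difference of -1.46 ± 0.40 (SE). The knockout mean lies below the receptor genes' 3.26, so the size is not a measured fold. Its unadjusted p of 0.000721 was the 7th lowest of all genes for genotype, and its adjusted p was 0.9996 (limma). It was -1.54 ± 0.40 without the arrays of mice 7 and 29 and -1.28 ± 0.37 without the highest mouse. In vessels the difference was -0.77 ± 0.43, with 2.22 ± 1.08 in knockout and 2.98 ± 1.75 in wild-type mice (n = 18 each). The other 7 genes differed between genotypes by -0.24 to 0.19 in septa and by -0.65 to 0.52 in vessels. At an unadjusted p below 0.05 the members were 1 of 8 in septa, against 3.98% of all genes, and 0 of 8 in vessels, against 4.86%, and at an adjusted p of 0.05 they were 0 of 8 and all genes 0% in both tissues.

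The smoke difference itself was compared between the genotypes. In vessels that of Cyp1a1 in knockout mice minus that in wild-type mice was -2.13 ± 0.87 (unadjusted p 0.019, adjusted p 0.998). For Lrat the same quantity was 2.51 ± 1.07 (unadjusted p 0.0252, adjusted p 0.998). These were 2 of 8 members at an unadjusted p below 0.05, against 4.38% of all genes, and 0 of 8 passed adjustment, against 0% of all genes. In septa 0 of 8 did so by either measure, against 3.8% of all genes unadjusted and 0% adjusted. The smoke difference by time gave 0 of 8 members and 0% of all genes past adjustment in each tissue, and by tissue 0 of 8 and 0.00966%.

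Between 8 and 3 months, where time of exposure and age cannot be told apart, 0 of 8 members passed adjustment in either tissue, against 3.5% of all genes in septa and 1.27% in vessels. At an unadjusted p below 0.05 they were 3 of 8 in septa, against 15.8% of all genes, and 2 of 8 in vessels, against 13.9%. In septa Nqo1 averaged 3.94 ± 2.04 at 8 months and 5.15 ± 0.96 at 3 months, a difference of -1.18 ± 0.46 (adjusted p 0.167). Aldh3a1 differed by 0.93 ± 0.36 (adjusted p 0.166) and Tiparp by 0.68 ± 0.30 (adjusted p 0.253). In vessels Cyp1b1 differed by 1.13 ± 0.53 (adjusted p 0.336) and Ahr by 0.64 ± 0.31 (adjusted p 0.345). The other, dim Ahr probe gave the opposite sign for time in vessels (-0.26). Tiparp differed by 0.66 ± 0.35 in vessels on the chosen probe (adjusted p 0.412) and by 2.10 ± 0.53 on the other (adjusted p 0.0431), so its call depended on the probe.

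Between vessels and septa 5 of 8 members passed adjustment, against 28.9% of all genes. Those higher in vessels were 2 of 8 (12.7% of all genes), and those lower 3 of 8 (16.2%). Nqo1 averaged 7.55 ± 1.61 in vessels and 4.53 ± 1.70 in septa (SD, n = 36 and 39), an 8.27-fold difference (3.05 ± 0.35 SE, adjusted p 3.179e-11). Only 28 of 39 septa arrays exceeded the single-value background for Nqo1, so this fold may be compressed. Cyp1b1 averaged 5.25 ± 1.61 in vessels and 2.52 ± 1.07 in septa (2.77 ± 0.31, adjusted p 1.295e-11), with the septa mean below the receptor genes' 3.26. Lrat went the other way, with 3.84 ± 1.88 in vessels and 6.99 ± 0.82 in septa (-3.12 ± 0.30, adjusted p 4.353e-14). Ahr was lower in vessels by a smaller step (-0.89 ± 0.18, adjusted p 4.337e-05), as was Tiparp (-0.63 ± 0.23, adjusted p 0.0316). Cyp1a1 lay just outside the threshold (-0.73 ± 0.30, adjusted p 0.0548), and Aldh3a1 (0.48 ± 0.31) and Ahrr (-0.23 ± 0.21) did not pass. With the mouse as a paired block (fixed factor, same animal in both tissues by the labels, mice 7 and 29 included) Tiparp no longer passed (-0.58, adjusted p 0.0733) and Cyp1a1 did (-0.76, adjusted p 0.0227). Cell makeup moved with tissue: besides smooth muscle, 4 of 6 club cell genes, 5 of 6 ciliated cell genes and 4 of 5 heart muscle genes passed as higher in vessels, and 5 of 7 alveolar macrophage genes and 6 of 6 type 1 pneumocyte genes as lower. Their part in the levels of the 8 genes was not tested.

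**Figure D5:**
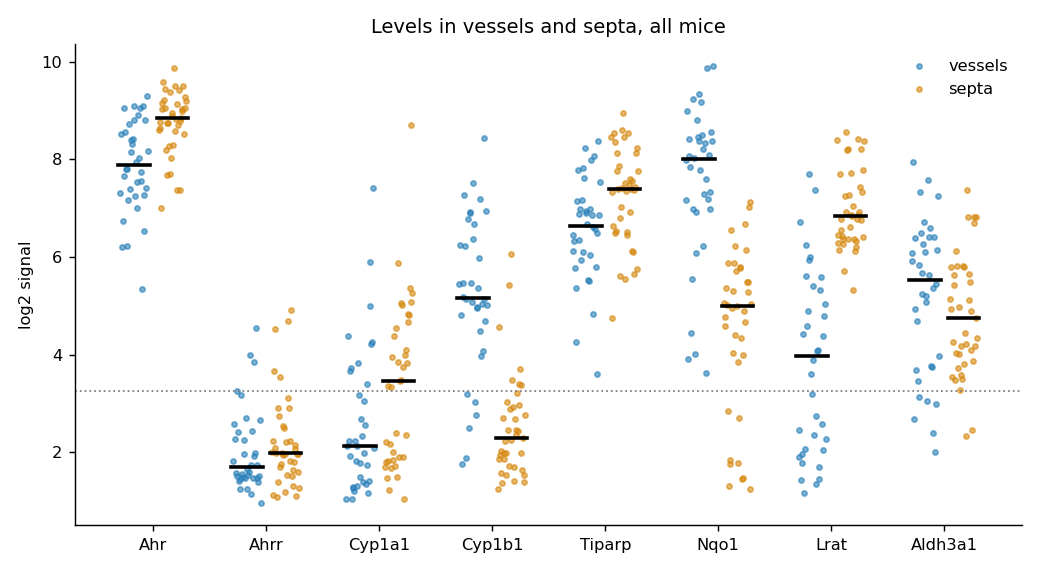
Log2 signal of the 8 genes in vessels (left of each pair) and septa (right), 1 point per mouse over all groups, with the median as a bar and the receptor genes' level of 3.26 dotted. Nqo1 and Cyp1b1 are higher in vessels, Lrat is higher in septa, and Ahrr lies below the line in most mice of both tissues.

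Other genes of the pathway did not pass for smoke in any of the 8 comparisons or the 2 means. For the 2 means 0% of all 20710 genes passed, so the counts of 0 below do not set these lists apart. Of 9 genes of the receptor's complex and coactivators 0 of 9 passed for mean smoke in either tissue. Their 2 largest mean smoke differences in vessels were Nrip1, a corepressor (-1.01 ± 0.68), and Arnt2, a relative of the receptor's partner (-0.59 ± 0.46), and in septa the partner Arnt (-0.38 ± 0.15) and the coactivator Ncoa2 (-0.32 ± 0.17). Of 15 further targets and ligand-metabolising genes 0 of 15 passed in either tissue. The largest were Cyp2s1 (1.12 ± 0.60) and the glutathione transferase gene Gsta2 (-0.9998 ± 0.57) in vessels, and Cyp2s1 (-0.60 ± 0.50) and the kynurenine-forming Ido1 (-0.42 ± 0.36) in septa. Cyp1a2, the near relative of Cyp1a1, differed by -0.21 ± 0.26 in vessels and 0.11 ± 0.24 in septa. Of 11 retinoid genes 0 of 11 passed, with the retinoic acid receptor gene Rarb (-1.20 ± 0.63) and the retinaldehyde reductase gene Dhrs3 (0.47 ± 0.21) largest in vessels and the retinoic acid hydroxylase gene Cyp26b1 (1.28 ± 0.57) and the retinol dehydrogenase gene Rdh10 (-0.55 ± 0.40) in septa.

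Some of these genes passed for time or tissue, where 3.5% (time, septa), 1.27% (time, vessels), 12.7% (higher in vessels) and 16.2% (lower in vessels) of all genes did. Nfe2l2, which encodes the NRF2 factor that also drives Nqo1, was higher at 8 than at 3 months by 1.24 ± 0.15 in septa (adjusted p 2.266e-06) and by 0.86 ± 0.20 in vessels (adjusted p 0.026). In septa Arnt (0.54 ± 0.15), Ncoa2 (0.63 ± 0.17) and the chaperone gene Hsp90ab1 (0.42 ± 0.09) were higher at 8 months too, and Hsp90ab1 was so in vessels (0.41 ± 0.11). Between the tissues 5 of the 15 targets passed as higher in vessels: Cyp2s1 by 5.32 ± 0.40, Aldh1a3 by 1.47 ± 0.27, Gsta2 by 1.36 ± 0.30, Ereg by 1.24 ± 0.25 and Gsta1 by 0.79 ± 0.23. Lower in vessels were Ido1 (-1.31 ± 0.24) and Ncoa3 (-0.43 ± 0.13). Of the retinoid genes, the retinaldehyde dehydrogenase gene Aldh1a2 (3.82 ± 0.27) and the retinol carrier gene Rbp4 (3.37 ± 0.28) were higher in vessels. Aldh1a1 (-0.87 ± 0.14), Rara (-0.87 ± 0.19) and Dhrs3 (-0.33 ± 0.12) were lower there.

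The 8 genes did not move as a block across mice. Within groups their pairwise correlations ran from r = -0.57 (Cyp1b1 with Tiparp) to 0.44 (Cyp1a1 with Aldh3a1) over 39 septa, and from -0.35 (Cyp1a1 with Tiparp) to 0.48 (Ahrr with Aldh3a1) over 36 vessels. Cyp1a1 correlated with Nqo1 at 0.18 in septa and 0.09 in vessels. Among 12724 or 12725 genes above background, those most like each member over the 76 arrays, after removal of the tissue means, were Cyp2e1 (r = 0.42), Met (0.37) and Cdk11b (0.37) for Cyp1a1, where 95% of all genes compared lay below 0.19. For Lrat they were Ccdc65 (0.66), Mrc2 (0.59) and Meig1 (0.57), which correlated at 0.73, 0.64 and 0.69 in vessels and at 0.37, 0.33 and -0.004 in septa. For Nqo1 they were Hhip (0.47), Nol9 (0.44) and Ttll6 (0.43). For Aldh3a1 they were Mal2 (0.56), Alas1 (0.55) and Krt8 (0.55), and for Ahr Gimap4 (0.58), Rps6ka5 (0.56) and Rb1 (0.55). For Tiparp they were Hmgb1 (0.56), Smchd1 (0.52) and Bach2 (0.48), for Cyp1b1 Tox3 (0.51), Tcirg1 (0.51) and Gm5766 (0.49), of which Tcirg1 had 0.67 in vessels and 0.007 in septa, and for the dim Ahrr Serpina3n (0.41), Nek8 (0.39) and Grb2 (0.39). The arrays share tissue mixture and amplification, and no member of the 8 was among the 3 nearest genes of another. Cyp1a1 and Ahrr, with means over all arrays below 3.26, were not among the genes compared, so neither could be listed there.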

How the data were processed

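Per the labels' protocols, RNA (RNeasy Micro) was amplified (Ovation PicoSL WTA V2) and, as Cy5 target, put on single-colour Agilent arrays, with 62976 features on 76 arrays. The authors deposited log2 signals that look quantile normalized, judging by array medians of 3.190 to 3.192. The submitters' processing notes name limma without a version, and no source used here states a background correction. Of the features, 31465 carried 1 gene symbol and 31511 none, and 671 with an empty cell were left out. Symbols were matched by accession to RefSeq (29050 matched, 2415 kept as given, 2933 updated). For the 6007 genes with several features the one with the highest mean was kept, which left 20710 genes.

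Groups were taken from the sample titles. The 8 group means of a tissue went into 1 fit (limma 3.58.1, R 4.3.3, eBayes with a trend, Benjamini-Hochberg over all genes, threshold 0.05). Comparisons of tissues used all 76 arrays with the mouse as a random block (consensus correlation 0.0262). Both arrays labelled mouse 25 (wild-type control, vessels, 3 months) correlated at 0.851 (other pairs of the group 0.827 to 0.876) and were averaged to 1 replicate, leaving 36. Replicates are mice, and their number limits the precision. The mouse number pairs the tissues as the same animal. Over 35 pairs the deviations from group means correlated at a mean of 0.03, and replicate numbers of smoke and control paired nothing (means 0.023 in septa and 0.003 in vessels).

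The members and lists were chosen with earlier results of these data known. Genes named were the 8 members, pathway and retinoid genes past adjustment, the 2 with the largest mean smoke difference per list and tissue, and the 3 genes most correlated with each member. Cyp1a2 was named after its values were seen. Some genes of the lists are not reported here. The fits were first tested on simulated data. A shift of 2 log2 units passed in 54% and 58% of shifted genes for smoke in wild-type septa at 3 and 8 months. In wild-type vessels it passed in 22% and 28%, and for mean smoke in 98% (septa) and 90% (vessels). A shift of 1 unit passed for mean smoke in 50% (septa) and 28% (vessels). In each run 50 random genes were given each of the shifts 1, 2, 3 and 4. With so many shifted genes the adjusted p is easier to pass than where few genes pass, as for smoke here. The spread of Cyp1a1 and Nqo1 within groups of septa also lay at percentiles 92.1 and 97.5 of all genes. The rates are therefore likely too high for these genes, and a gene that did not pass can still differ. Alternatives were the other probes and their mean, cyclic loess, a filter on dim genes, array weights, no trend, Xist as a covariate, other blocks and sample sets, leaving out mice 7 and 29, and leaving out each array. Figures were drawn with Python 3.11.15, pandas 2.3.3, numpy 2.4.6 and matplotlib 3.10.9.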

Additional observations from a re-analysis of the deposited data

Results flagged for a closer look

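In each of 128 groups of 4 or 5 mice (8 genes in 16 groups) the gap between the highest or lowest value and its neighbour was set against the range of the group. It exceeded Dixon's critical value in 9 groups. Chance flags about 1 in 20 groups.

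For Cyp1a1, replicate 3 of the wild-type smoke-exposed septa at 8 months (mouse 38) had 8.71, against 4.80 to 5.36 in the other 4. Its vessel array had the highest Cyp1a1 value of that tissue. Without the septa array the smoke difference at 8 months was 1.98 ± 0.77 in place of 2.70 ± 0.79, and the mean smoke difference 1.18 in place of 1.36.

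Cyp1b1 was high at 4.57 in replicate 3 of the knockout control septa at 3 months, and at 8.44 in replicate 5 of the wild-type smoke-exposed vessels at 3 months. Without these the Cyp1b1 smoke differences were 0.48 in place of -0.08, and -0.31 in place of 0.50, and none passed the test.

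Lrat was low at 5.33 in replicate 3 of the wild-type control septa at 3 months and high at 4.43 in replicate 3 of the knockout control vessels at 8 months. Without these the Lrat smoke differences were 0.65 in place of 1.05, and 2.94 in place of 2.40.

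Ahr was low at 7.01 in replicate 4 of the knockout control septa and at 7.37 in replicate 1 of the wild-type smoke-exposed septa, both at 3 months. Without them its smoke differences were -0.46 in place of -0.11, and -0.15 in place of -0.46.

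Ahrr stood out at 4.55 in replicate 3 of the wild-type smoke-exposed and at 4.00 in replicate 4 of the wild-type control vessels at 3 months, with the other mice of both groups near background. Its smoke difference there was -0.31 without the first and 0.87 without the second, in place of 0.24.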

How the results depend on the processing

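In no smoke, genotype or interaction comparison did any of the 8 genes pass an adjusted p of 0.05 under the alternatives tried, and no called difference changed sign. Of 1569 alternative values of uncalled differences 84 changed sign, as did 172 of 4436 values with 1 array left out. For time in vessels 1 member passed with the mean of all probes (Tiparp, 1.38, adjusted p 0.0345), against 0 with the chosen probe. Between vessels and septa 5 or 6 members passed, also with 1 array left out. Cyp1a1 joined under cyclic loess, array weights, Xist as a covariate and without mice 7 and 29, and Tiparp was lost under cyclic loess (-0.51, adjusted p 0.0866) and in 1 of the fits without 1 array. With a replicate block by replicate number the mean smoke difference in septa was 1.34 for Cyp1a1, 1.36 for Nqo1 and 0.74 for Lrat, and the count of members passing stayed at 0. Over all genes, time in septa gave 225 to 907 genes (main 725), time in vessels 148 to 1111 (main 262), smoke in wild-type and knockout vessels at 3 months 0 to 34 and 0 to 23 (main 0), smoke in knockout vessels at 8 months 0 to 2, mean smoke in vessels 0 to 5, smoke by genotype in vessels 0 to 4 (main 0 each), smoke in wild-type septa at 3 months 0 to 1 (main 1), and vessels against septa 5292 to 6063 (main 5978). The causes were not tested. Signals near background limit Ahrr, Cyp1a1 in both tissues, Cyp1b1 and in part Nqo1 in septa, and Lrat in vessels, where a fold is compressed.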
